A study of Rattus norvegicus with 12 samples.

Results

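Connexins are the proteins of gap junctions, the channels through which neighbouring heart muscle cells pass ions and so share their electrical beat. The genes described here are those for connexin 43 (Gja1), connexin 40 (Gja5), connexin 45 (Gjc1), connexin 37 (Gja4), connexin 46 (Gja3), connexin 26 (Gjb2) and connexin 30 (Gjb6), together with Tjp1, which encodes the scaffold protein ZO-1. They were listed by name, and a probe set of the array was taken for a gene where the platform annotation gave that symbol and no other. Of the 8 listed genes, 7 had such a probe set, 1 each, among 27342 probe sets in all. No probe set carried the symbol Gjc1 alone, and connexin 45 was not analysed here.

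The RNA came from monolayers of heart cells that were grown for 3 days before treatment; the donors were Sprague-Dawley pups aged 2 days, all of 1 litter. The DEHP group held 6 cultures kept for a further 3 days in 50 µg/mL DEHP, di(2-ethylhexyl) phthalate, a plasticizer of flexible medical plastics, dissolved in 0.1% DMSO. The Control group held 6 cultures kept for the same time in 0.1% DMSO, which both groups therefore received. Each culture was measured on 1 Affymetrix array, and the comparison asked which transcripts differed under DEHP. Such cultures hold heart muscle cells beside other cells of the heart, and with a single litter the tests measure the spread between cultures and arrays.

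Each gap junction channel is made of connexin hexamers from a pair of facing cells, and the connexins of a cell set how readily current passes. In the mammalian heart connexin 43 is the main connexin of working ventricular muscle, connexin 40 belongs to the atria, the His-Purkinje system and arterial endothelium, and connexin 37 to endothelium. Connexin 46 is best known from the lens, and connexins 26 and 30 from the inner ear and other epithelia. ZO-1 is a tight junction scaffold that in heart muscle binds the tail of connexin 43 at the rim of the gap junction.

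The deposited values were ratios of each probe set to its own median over the 12 arrays, and they are given here as log2 ratios, so that 0 is that median. They hold no expression level, and whether a gene was well expressed, or which connexin was the most abundant, cannot be read from them. Differences between groups are log2 folds of DEHP over Control ± SE from limma, n = 6 arrays per group, and an adjusted p under 0.05 over all 27342 probe sets counted as passing. DEHP replicate 6 and Control replicate 5 stood apart from the rest, with an SD of the log2 ratios of 0.267 on the DEHP array and 0.369 on the Control array, against 0.149 to 0.188 on the other arrays. Among the controls, replicate 5 was the highest array for Gja4, Gja3, Gjb2 and Gjb6 and the lowest for Gja1 and Tjp1. Results whose call changed without these arrays are given both ways.

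Gja1 was higher and Gja5 was lower under DEHP, and the other 5 genes did not pass. The count of 2 of 7 genes stands against 18.3% of all probe sets that passed in either direction, 10.5% that were higher and 7.82% that were lower. The DEHP and Control values did not overlap for those 2 genes, as for 12.2% of all probe sets. Without both arrays that stood apart, 4 of the 7 genes passed, against 21.1% of all probe sets, Gja4 and Tjp1 being the additions.

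The promoters of the 2 genes that passed are shown because the genes moved in opposite directions. Both sequences are the 250 bases before the annotated start in RefSeq (build GRCr8), on the + strand, at chr20:36302314-36302563 for Gja1 and chr2:187290977-187291226 for Gja5. Capitals mark matches to any of 7 motifs searched on both strands.
Gja1: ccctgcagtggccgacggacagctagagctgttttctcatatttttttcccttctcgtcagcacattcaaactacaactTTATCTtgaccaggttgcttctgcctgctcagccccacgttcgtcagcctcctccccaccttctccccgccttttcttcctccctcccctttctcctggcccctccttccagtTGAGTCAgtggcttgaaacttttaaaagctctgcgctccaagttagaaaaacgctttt
Gja5: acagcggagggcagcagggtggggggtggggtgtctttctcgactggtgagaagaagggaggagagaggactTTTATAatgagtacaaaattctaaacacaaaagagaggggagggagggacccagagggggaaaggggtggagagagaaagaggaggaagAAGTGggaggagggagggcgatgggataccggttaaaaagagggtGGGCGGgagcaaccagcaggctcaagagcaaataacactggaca

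The Gja1 window held 1 AP-1 site (TGACTCA, read here as its reverse complement), whose first base lay 58 bases before the start, and 1 GATA site (AGATAA, likewise on the reverse strand) at 171 bases. An AP-1 site was present in 4.05% and a GATA site in 10.3% of the 33469 RefSeq windows of that length. The Gja5 window held a GC box (GGGCGG) at 44 bases, an Nkx2-5 core (AAGTG) at 89 bases and a TATA box sequence (TATAAA, on the reverse strand) at 178 bases. These occurred in 30.5%, 40.6% and 12.9% of all windows in that order. Neither window held a T-box half-site (GGTGTGA, in 3.22% of windows) or a direct repeat of the kind PPAR receptors bind (in 0.0508%). None of the marked matches overlaps another, and a match is a run of letters, with no binding measured here. RefSeq windows were found for all 7 genes with a probe set.

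Gja1, whose product couples ventricular muscle cells, gave the largest difference of the 7 genes. Its log2 ratios under DEHP were 0.83, 0.66, 0.77, 0.80, 0.67 and 0.40, against −0.40, −0.63, −0.60, −0.56, −0.95 and −0.51 in Control cultures. Every DEHP culture lay above every Control culture, with DEHP replicate 6 the lowest of its group and Control replicate 5 the lowest of all. The means were 0.69 ± 0.16 under DEHP and −0.61 ± 0.19 in Control (SD, n = 6 each). This is a log2 fold of 1.30 ± 0.09, or 2.46-fold, with a 95% interval of 1.10 to 1.50 and a limma adjusted p of 9.54e-07. Of all probe sets, 58 had a log2 fold at least as high as that of Gja1, itself included.

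Gja5, the atrial, conduction and arterial connexin gene, went the other way. Its log2 ratios were −0.27, −0.52, −0.42, −0.35, −0.27 and −0.17 under DEHP, against 0.32, 0.44, 0.17, 0.21, 0.31 and 0.23 in Control cultures. All 6 DEHP values lay below all 6 Control values, with means of −0.33 ± 0.12 and 0.28 ± 0.10 in that order (SD, n = 6 each). The log2 fold was −0.61 ± 0.06, which is 1.53-fold lower under DEHP, with a 95% interval of −0.75 to −0.48 and a limma adjusted p of 1.45e-05. In RNA from a whole culture, fewer cells of a type and less of the transcript per cell cannot be told apart.

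**Figure D1:**
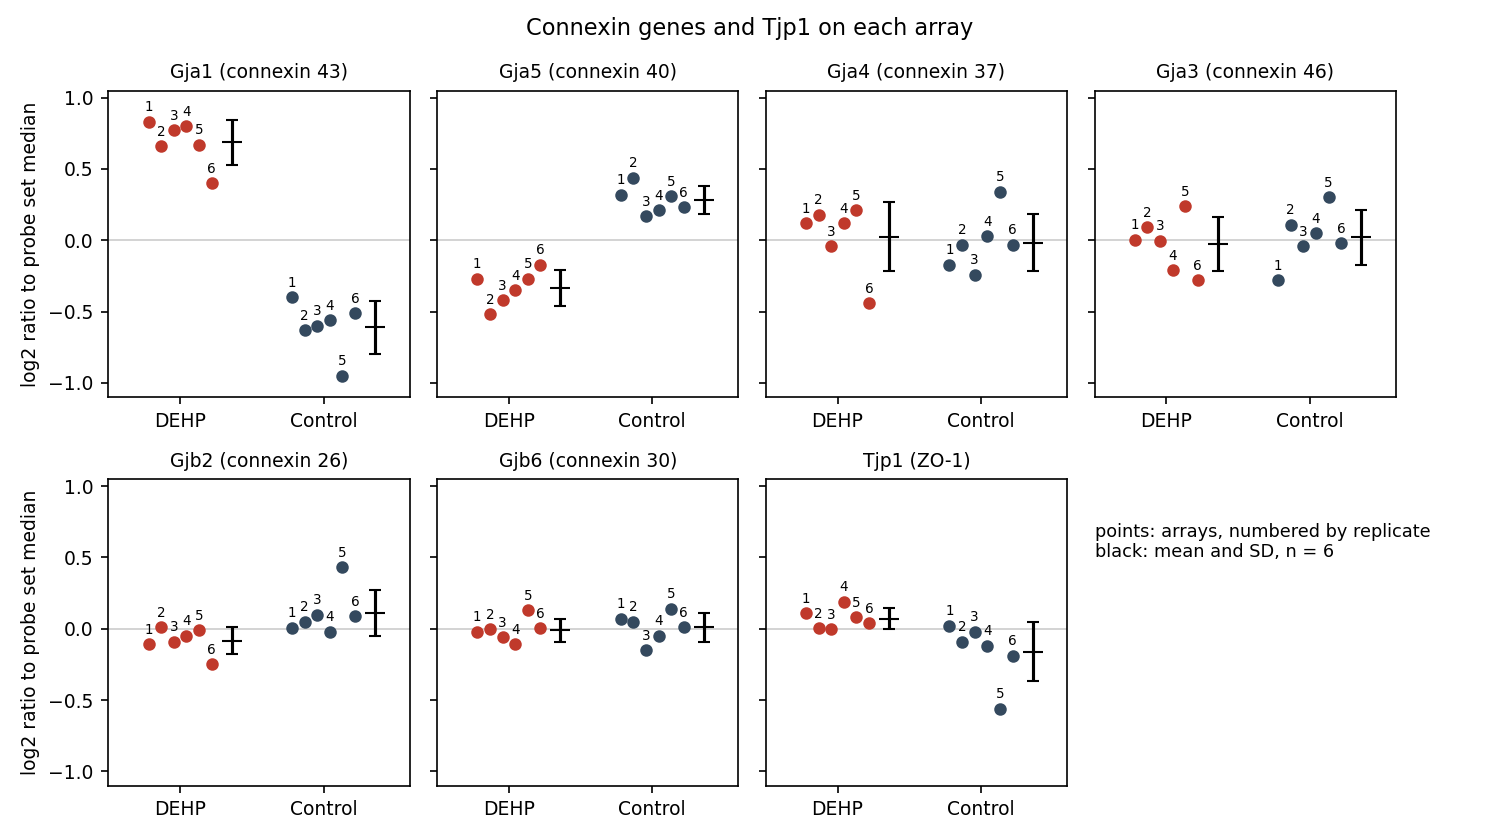
Log2 ratio to the probe set median (vertical axis) of the 7 measured genes on each array, DEHP left of Control, with replicate numbers beside the points and the mean and SD (n = 6) in black. Gja1 and Gja5 separate the groups in opposite directions, while the other 5 genes overlap and Control replicate 5 lies far from its group for Gjb2 (0.43) and Tjp1 (−0.56).

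Gja4, which encodes the endothelial connexin 37, did not pass. Its log2 ratios were 0.12, 0.18, −0.04, 0.12, 0.21 and −0.44 under DEHP, against −0.17, −0.03, −0.24, 0.03, 0.34 and −0.03 in Control cultures. The groups overlapped, and the lowest DEHP array was replicate 6 and the highest Control array was replicate 5, the pair that stood apart. The log2 fold was 0.04 ± 0.12 with a 95% interval of −0.22 to 0.30 (limma adjusted p = 0.857). Without both of those arrays it was 0.20 with a limma adjusted p of 0.0358, and leaving out either alone gave 0.13 or 0.11 and did not bring it past the threshold. The fit without both kept DEHP replicate 5, the highest DEHP array for Gja4 (0.21). In its deviations from the group means that array correlated with Control replicate 5 at 0.772. With the replicate number as a block Gja4 stood at 0.04 (limma adjusted p = 0.785).

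The genes for connexins 46, 26 and 30 lie near one another on a rat chromosome, each within 3 protein-coding genes of the next in the RefSeq table, and none of the 3 passed. Gja3 ran from −0.28 to 0.24 under DEHP and from −0.28 to 0.30 in Control cultures, with a log2 fold of −0.05 ± 0.10 (95% interval −0.27 to 0.17). Gjb6 ran from −0.11 to 0.13 under DEHP and from −0.15 to 0.14 in Control cultures, with a log2 fold of −0.02 ± 0.05 and the narrowest interval of the 7 genes, −0.14 to 0.09. Limma adjusted p was 0.802 for Gja3 and 0.803 for Gjb6.

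Gjb2, the connexin 26 gene, was nearer to the threshold. Its log2 ratios were −0.11, 0.01, −0.09, −0.05, −0.0084 and −0.25 under DEHP, against 0.0084, 0.05, 0.10, −0.02, 0.43 and 0.09 in Control cultures. The groups overlapped only around 0, and 4 DEHP arrays lay below all Control arrays. Its log2 fold was −0.19 ± 0.07 with a 95% interval of −0.35 to −0.03 (limma unadjusted p = 0.0227, adjusted p = 0.1). Control replicate 5 was the highest array, and without it the log2 fold was −0.13 and again did not pass. Without both arrays that stood apart it was −0.09 (limma adjusted p = 0.129). After quantile normalization it was −0.16 with a limma adjusted p of 0.0284.

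Tjp1, the scaffold gene, also lay close to the threshold, on the side of higher values under DEHP. Its log2 ratios were 0.11, 0.0024, −0.0024, 0.19, 0.08 and 0.04 under DEHP, against 0.02, −0.09, −0.02, −0.12, −0.56 and −0.19 in Control cultures. In 4 of 6 DEHP arrays it was above every Control array. The log2 fold was 0.23 ± 0.08 with a 95% interval of 0.05 to 0.42 (limma unadjusted p = 0.0174, adjusted p = 0.082). Control replicate 5 was the lowest array by far. Without that array the log2 fold was smaller, 0.15, and passed with a limma adjusted p of 0.0391. Quantile normalization (0.21, adjusted p = 0.0198) and array weights (0.19, adjusted p = 0.0105) also brought it past the threshold in limma.

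Whether connexin 43 differed in its response from each other gene was tested within arrays. The log2 ratio of the other gene was subtracted from that of Gja1 on every array, and the differences were compared between groups by a two-sided exact permutation test over the cultures. Against Gja5 this difference averaged 1.02 ± 0.24 under DEHP and −0.89 ± 0.22 in Control (SD, n = 6 each), a shift of 1.91 ± 0.13 (SE). Against Tjp1, whose product binds connexin 43, the averages were 0.62 ± 0.14 under DEHP and −0.45 ± 0.10 in Control (SD, n = 6 each), a shift of 1.07 ± 0.07 (SE). The shifts were 1.26 ± 0.16 against Gja4, 1.34 ± 0.17 against Gja3, 1.49 ± 0.15 against Gjb2 and 1.32 ± 0.13 against Gjb6. In all 6 pairs the 6 DEHP values lay above the 6 Control values, and the exact p was 0.00216, which is the smallest this design can give and also its value after Benjamini-Hochberg adjustment over the 6 pairs. The signed change of Gja1 thus differed from that of each other measured gene. The test does not compare the sizes of the changes, and against Gja5 the shift joins a rise of Gja1 and a fall of Gja5. Both of these genes already parted the groups, in opposite directions. The p against Gja5 could therefore only take its smallest value, and it adds nothing to the results of the 2 genes. Differences among the other genes, such as Gja5 against Gja4, were not tested.

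Outside the listed genes, 6 other connexins had a probe set, of 13 looked for, and none of them passed limma, with 0 under an unadjusted p of 0.05 as well. They were Gjb1 (log2 fold −0.06 ± 0.05), a connexin gene of liver and myelin, Gja6 (0.05 ± 0.05), Gjb5 (−0.03 ± 0.09), Gjd2 (0.03 ± 0.10), a neuronal connexin gene, Gjd3 (−0.12 ± 0.14) and Gjd4 (−0.06 ± 0.09). Their median log2 fold was −0.04, beside −0.02 over all probe sets. The mean of the 6 was 0.38 in Control replicate 5 and between −0.12 and 0.07 in the other controls. Among the DEHP arrays replicate 5 was also the highest, at 0.16. Without Control replicate 5, and with DEHP replicate 5 kept, the signs of Gjd3, Gjd4 and Gjb5 turned, to 0.0044, 0.02 and 0.04. The pannexins, which form large-pore channels of a single membrane, gave the same count, with 0 of 3 passing limma and 0 under an unadjusted p of 0.05. Panx1 had a log2 fold of −0.11 ± 0.07, Panx2 of −0.09 ± 0.15 and Panx3 of −0.08 ± 0.07, and Panx2 was at 0.02 without Control replicate 5.

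**Figure D2:**
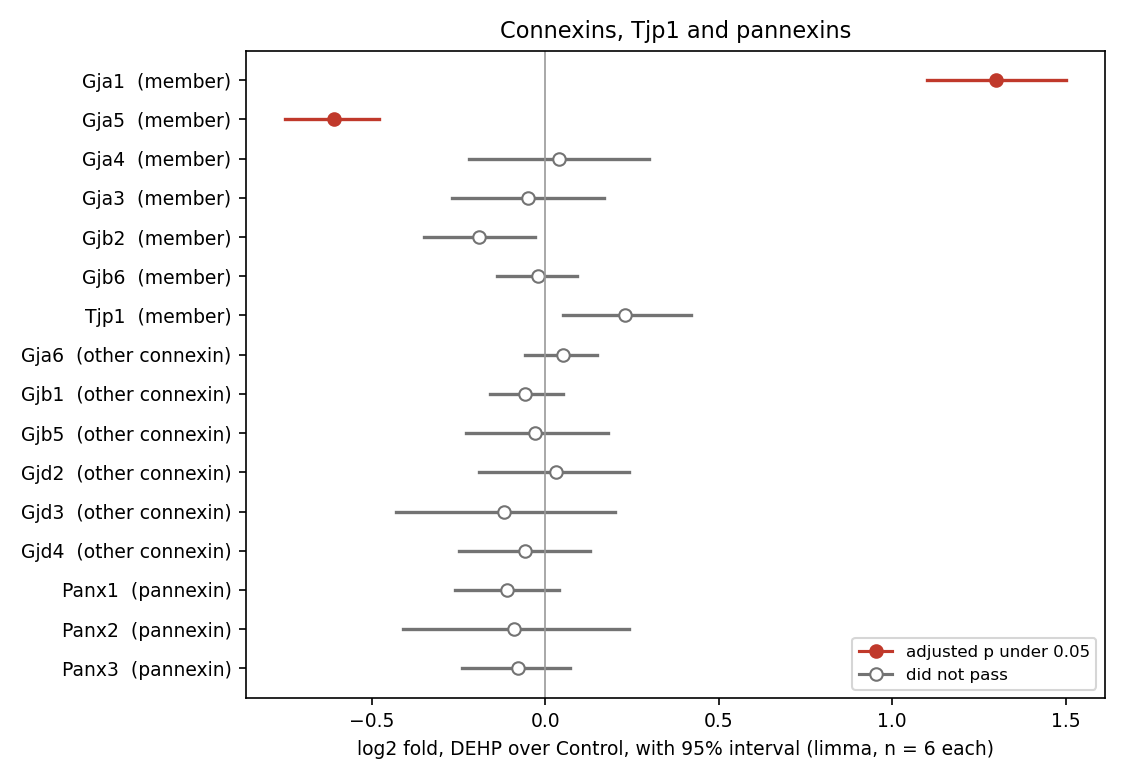
Log2 fold of DEHP over Control (horizontal axis) with its 95% interval from limma (n = 6 each) for the 7 measured genes, the other connexins and the pannexins. Gja1 (1.30) and Gja5 (−0.61) are the filled points that passed, and the intervals of the others, apart from Gjb2 and Tjp1, include 0.

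Among 40 other tight junction genes, 4 were lower under DEHP, 0 were higher and 36 did not pass, beside 7.82% of all probe sets lower and 10.5% higher, so that the lower count was near the background. Their median log2 fold was −0.09 beside −0.02 over all probe sets. At an unadjusted p under 0.05 in limma, 7 were lower and 3 higher. Those that fell were Amotl2 (−0.72 ± 0.07), an angiomotin relative at endothelial junctions, Jam3 (−0.27 ± 0.06), a junctional adhesion molecule, Magi1 (−0.26 ± 0.06), a scaffold with PDZ domains, and Marveld1 (−0.32 ± 0.09). Amotl2 ran from −0.53 to −0.23 under DEHP and from 0.23 to 0.55 in Control cultures, a clear gap. A second probe set of Magi1 did not pass (−0.19 ± 0.07, limma adjusted p = 0.0792), and after cyclic loess Magi1 was at −0.18 with a limma adjusted p of 0.355. Marveld1 had a limma adjusted p of 0.0775 without both arrays that stood apart, and of 0.0543 to 0.0741 without any 1 of DEHP replicates 1, 3, 4 and 6 or Control replicates 2, 4, 5 and 6. Cldn5, the endothelial claudin, stood at 0.30 ± 0.10 with a limma adjusted p of 0.0517, at 0.36 with 0.0187 without DEHP replicate 6, and at 0.32 with 0.0469 without Control replicate 5. Cldn2 (−0.18 ± 0.07) and Sympk (0.12 ± 0.05), which encodes the RNA processing factor symplekin, did not pass, but did with array weights (−0.22 and 0.11, limma adjusted p = 0.0159 and 0.0455). Tjp3, the gene of the related scaffold ZO-3, did not pass either (−0.09 ± 0.08), a value chosen after it was seen.

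Of 29 measured genes whose products bind, phosphorylate or carry connexin 43, 7 were higher, 7 were lower and 15 did not pass, beside 10.5% of all probe sets higher and 7.82% lower. Their median log2 fold was 0.07. Ccn3, a secreted matrix protein that binds the tail of connexin 43, was the lowest, at −1.69 ± 0.06 (limma adjusted p = 2e-09). Its log2 ratios lay between −1.05 and −0.77 under DEHP and between 0.77 and 0.96 in Control cultures. The caveolin gene Cav1 (−0.90 ± 0.07), Vcl (−0.84 ± 0.11), which encodes the actin anchor vinculin, and Dbn1 (−0.57 ± 0.04), which encodes the actin-binding drebrin, fell too. Among the genes that rose were Cdh2, for N-cadherin (0.37 ± 0.06), Pkp2, for the desmosomal plakophilin 2 (0.32 ± 0.05), and Ctnna1, for the adherens junction protein alpha-catenin (0.19 ± 0.04), the last named after its value was seen. The rest of the higher genes, likewise named after their values were seen, were Dlg1 (0.39 ± 0.08), Sgsm3 (0.34 ± 0.06), Prkcd (0.20 ± 0.05) and Ank3 (0.19 ± 0.05). Dlg1 had the largest rise of the list. Ubqln4 (0.16 ± 0.06), Mapk7 (0.15 ± 0.06) and Nedd4 (0.12 ± 0.05), genes of connexin 43 degradation and phosphorylation, did not pass. Ubqln4 did after quantile normalization (0.14, limma adjusted p = 0.0407) and Nedd4 with array weights (0.14, limma adjusted p = 0.0269). Without both arrays that stood apart, 7 were higher and 8 lower.

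**Figure D3:**
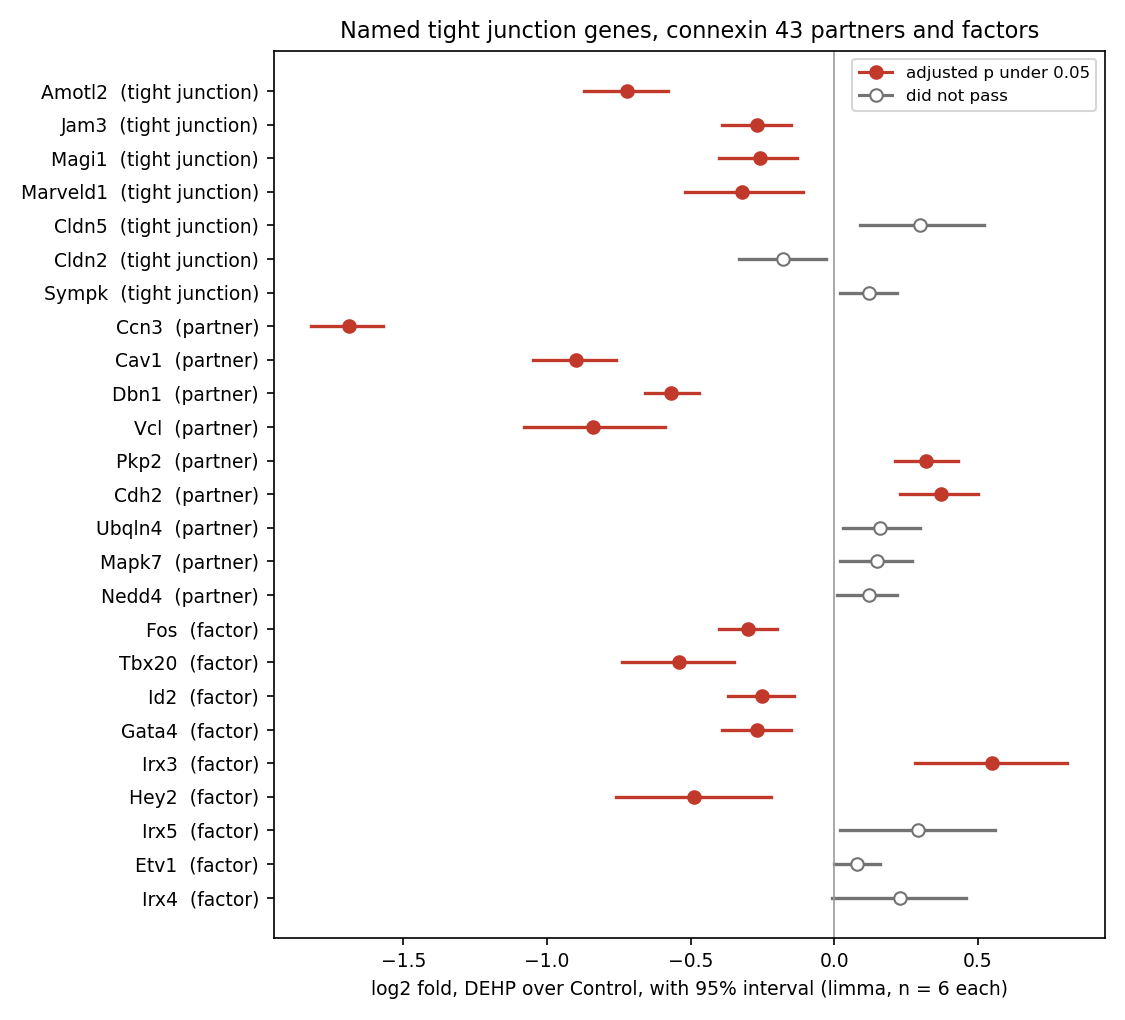
Log2 fold of DEHP over Control (horizontal axis) with its 95% interval from limma (n = 6 each) for named tight junction genes, partners of connexin 43 and transcription factors of cardiac connexin genes. Ccn3 (−1.69), Cav1 (−0.90) and Vcl (−0.84) lie farthest from 0, while Irx3 (0.55), Cdh2 (0.37) and Pkp2 (0.32) are the filled points to the right.

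Transcription factors known to act on connexin genes of the heart also went both ways, with 4 of 21 higher, 5 lower and 12 not passing, beside 10.5% of all probe sets higher and 7.82% lower. Their median log2 fold was −0.02. Tbx20, a T-box factor of heart muscle, fell (−0.54 ± 0.09), as did the helix-loop-helix factors Hey2 (−0.49 ± 0.12) and Id2 (−0.25 ± 0.05) and the zinc finger factor Gata4 (−0.27 ± 0.06). Irx3, which in mouse raises Gja5 and lowers Gja1 in the ventricular conduction system, rose (0.55 ± 0.12, limma adjusted p = 0.00635). The groups overlapped for Irx3, at −0.14 to 0.65 under DEHP and −0.47 to 0.02 in Control cultures. The AP-1 genes parted, Fos being lower (−0.30 ± 0.05) and Jun, named after its value was seen, higher (0.31 ± 0.08). The remaining higher factors, also named after their values were seen, were Tbx3 (0.25 ± 0.07) and Hopx (0.23 ± 0.06). Irx5 (0.29 ± 0.13), Irx4 (0.23 ± 0.11) and Etv1 (0.08 ± 0.04) did not pass, though Irx5 passed without Control replicate 5 (0.38, limma adjusted p = 0.0152) and Irx4 without both arrays that stood apart (0.32, limma adjusted p = 0.0394). After cyclic loess Id2 (−0.20, limma adjusted p = 0.156) and Hey2 (−0.39, limma adjusted p = 0.299) did not pass. Without both arrays that stood apart, 6 were higher and 6 lower.

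Markers of the cells in which each connexin is usually found were read beside these results, and their part in the results was not tested. For Gja4 these were endothelial genes, 4 of 7 higher and 1 lower under DEHP, beside 10.5% of all probe sets higher and 7.82% lower. Their median log2 fold was 0.33. Without both arrays that stood apart, 5 were higher and 1 lower, against 21.1% of all probe sets that passed in either direction. Their mean log2 ratio lay between 0.10 and 0.38 in 5 DEHP arrays and at −0.27 in DEHP replicate 6, where Gja4 was also lowest, against −0.22 to 0.07 in Control cultures. DEHP replicate 6 was the lowest DEHP array in 8 of the 10 marker lists, so this match was not particular to the endothelial list. In Control replicate 5 Gja4 was the highest control (0.34) and the endothelial mean the lowest (−0.22). Tie1, an endothelial receptor, rose (0.58 ± 0.11) and Flt1, a VEGF receptor, fell (−0.74 ± 0.10).

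Beside Gja5 stood 4 conduction cell markers, 1 lower, 0 higher and 3 not passing in limma (0 higher and 2 lower at an unadjusted p under 0.05). The counts of this and the following lists stand beside 10.5% of all probe sets higher and 7.82% lower. The lower one was Cntn2, a Purkinje fibre adhesion gene (−0.36 ± 0.05), and Cacna1g, a T-type calcium channel gene, stood at −0.16 ± 0.07. The mean of the 4 conduction cell markers ran from −0.20 to 0.12 under DEHP and from −0.04 to 0.35 in Control cultures. The endothelial list, which also bears on Gja5 as an arterial gene, mostly went the other way from Gja5. Of its 7 markers 4 were higher and 1 lower (5 and 1 without both arrays that stood apart), with a median log2 fold of 0.33. Of 7 atrial markers, a list added after these results were known, 3 were lower and 1 higher, Nppa being among the lower (−0.80 ± 0.04) and the potassium channel gene Kcnj3 the higher (0.56 ± 0.07). The other 3 did not pass. The atrial mean lay between −0.48 and −0.08 under DEHP and between 0.08 and 0.25 in Control cultures. This parting of the groups is a description only, since the list was chosen with these results known. Beside Gja1 stood 12 cardiomyocyte markers, of which 4 were higher and 5 lower, with Myh6 (1.67 ± 0.12) and Ryr2 (1.13 ± 0.10) among the higher. The 5 lower ones, named after their values were seen, were Mb (−0.69 ± 0.16), Tnnc1 (−0.57 ± 0.11), Myl3 (−0.41 ± 0.10), Myoz2 (−0.37 ± 0.05) and Actc1 (−0.22 ± 0.04). The mean of the 12 cardiomyocyte markers overlapped between groups, at −0.26 to 0.25 under DEHP and −0.19 to 0.08 in Control cultures. All 7 smooth muscle markers were lower, with means of −1.29 to −0.65 under DEHP and 0.65 to 0.80 in Control cultures, a wider gap than that of the atrial mean.

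**Figure D4:**
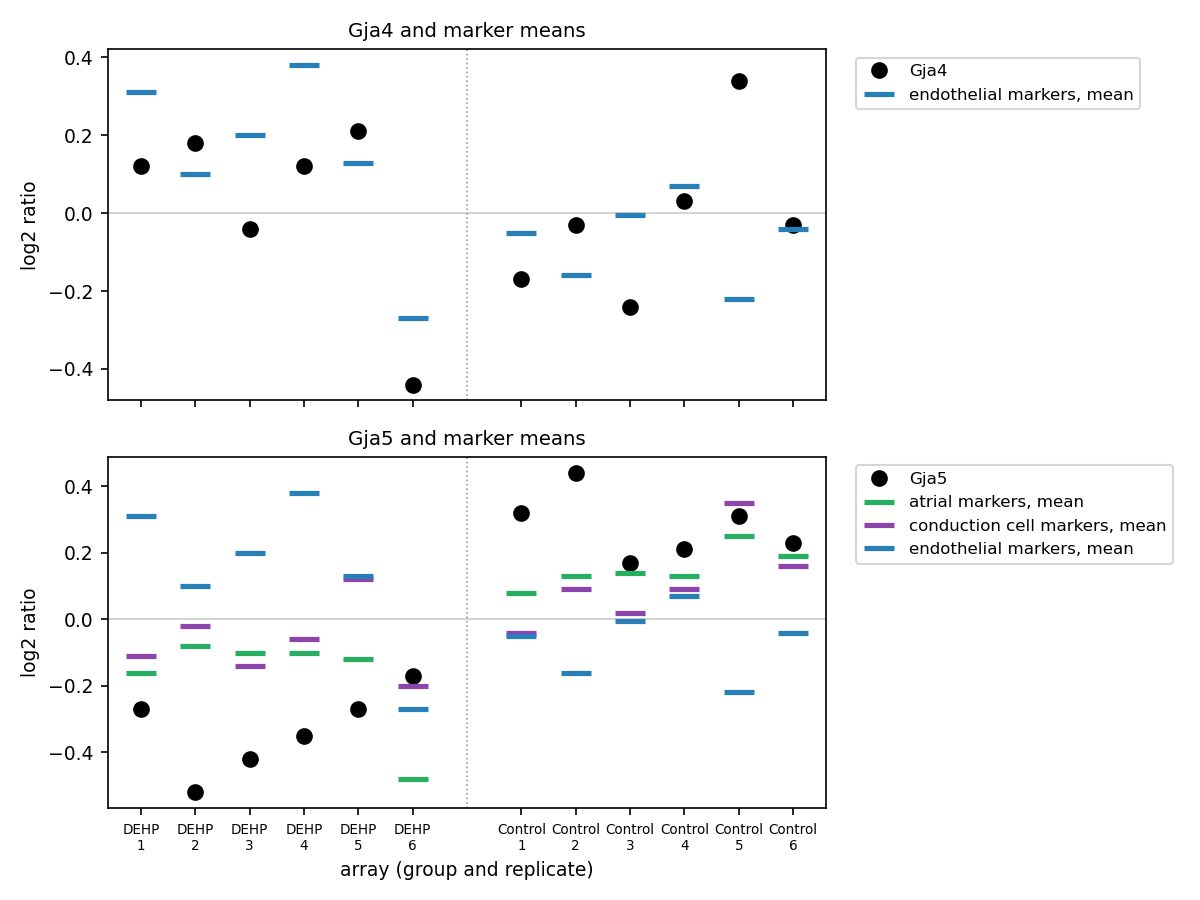
Log2 ratios of Gja4 (top) and Gja5 (bottom) as black points on each array, DEHP replicates left of Control replicates, with the mean log2 ratio of marker lists as coloured bars. Gja4 and the endothelial mean are both the lowest of the DEHP arrays in replicate 6 (−0.44 and −0.27), but in Control replicate 5 Gja4 is the highest control (0.34) and the endothelial mean the lowest (−0.22). The atrial mean, of a list added after the results were known, parts the groups in the same direction as Gja5. The endothelial mean goes the other way from Gja5, above every control in all DEHP arrays but replicate 6.

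Pearson's r between genes is given as a description, since all points share the 2 groups and the same arrays. Genes outside the listed ones were searched, each by its lowest-numbered probe set of 1 symbol. Provisional symbols beginning LOC or RGD were left out. Named here are the genes of that search whose values followed each connexin most closely over the 12 arrays. For Gja1 they were Lpin1 (r = 0.997), a phosphatidate phosphatase of lipid metabolism, Cpt1a (r = 0.992), the enzyme of fatty acid entry into mitochondria, and Coq10a (r = 0.991), a coenzyme Q binding protein. Their log2 folds were 1.23 ± 0.08, 1.01 ± 0.08 and 0.66 ± 0.06. For Gja5 they were Bmpr1b (r = 0.974), a receptor of bone morphogenetic proteins, Cadm1 (r = 0.973), an adhesion molecule, and Inhba (r = 0.973), which encodes the activin A subunit. Those fell by 0.46 ± 0.03, 1.24 ± 0.07 and 1.33 ± 0.12 on the log2 scale. When the group means were taken out, the closest to Gja1 were Palmd (r = 0.981), Enpp1 (r = 0.955) and 6330403K07Rikl (r = 0.953), and of these Palmd (−1.35 ± 0.15) and Enpp1 (−0.58 ± 0.14) fell under DEHP while Gja1 rose. The arrays farthest from their group mean of Gja1 were those that stood apart, DEHP replicate 6 (0.40, mean 0.69) and Control replicate 5 (−0.95, mean −0.61). These r values therefore rest largely on them, and r without them was not taken.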

How the data were processed

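Total RNA of 12 cultures (6 DEHP, 6 Control) was measured on Affymetrix arrays, 1 per culture, labelled as biological replicates. Per the submitters' processing notes the authors used RMA, with no version given. The authors deposited linear ratios, and the median log2 ratio of every probe set lay within 5e-07 of 0, so each value is relative to the probe set's own median. The deposited ratios were taken to log2 and not normalized again. Brightness over background is not known, and the number of arrays limits the precision.

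Probe sets were named by the platform annotation, and the RefSeq table (GRCr8), the source of the promoters, held the same symbol for all 7 genes. A gene with several probe sets took the lowest-numbered. Groups were compared with limma 3.58.1 in R 4.3.3 (lmFit, eBayes, two-sided, Benjamini-Hochberg adjustment over 27342 probe sets), checked on simulated data, and within-array differences with an exact permutation test (scipy 1.17.1) over 6 pairs, connexin 45 having no probe set. Plots used matplotlib 3.10.9.

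The genes and lists were chosen with earlier results of these data known, and the rule for naming genes was every listed gene, every other connexin, up to 6 passing and 3 other genes of each further list by smallest p, 2 of each marker list, and the closest genes by Pearson's r. Other settings tried were array weights, robust eBayes, cyclic loess, quantile normalization, centring on array medians, a replicate block, an adjusted p under 0.01, a minimum fold of 1.2, probe sets with 1 symbol, the mean of a gene's probe sets, and arrays left out.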

Additional observations from a re-analysis of the deposited data

Results flagged for a closer look

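In 34 groups of 6 arrays, formed by the 7 genes and the marker lists in each treatment, the gap of the end value to its neighbour was set against Dixon's 95% limit, which chance passes in about 5% of groups, and 5 groups passed it. Gjb2 was at 0.43 in Control replicate 5, above every other control, and Tjp1 was at −0.56 in the same array, below every other control. The mean of the erythroid markers was also far from the rest in Control replicate 5, at 0.37. In DEHP replicate 6 the mean of the fibroblast markers was −0.26 and that of the atrial markers −0.48, each the lowest of its group. Gja1 and Gja4 were lowest of the DEHP arrays in replicate 6 too, with gaps of 0.611 and 0.61 of the range, short of the limit.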

How the results depend on the processing

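Gja1 and Gja5 passed in the same direction under all 23 alternatives, with log2 folds of 1.23 to 1.36 and −0.65 to −0.58 when 1 array was left out, and the 6 within-array differences from Gja1 kept their direction and passed under each setting in which they were run. The number of genes that passed among the 7 was 2, but 4 after quantile normalization and 4 without both arrays that stood apart, and 2 to 3 with 1 array left out. Tjp1 (0.23) passed at 0.21 after quantile normalization, 0.19 with array weights and 0.16 without both arrays, and ranged from 0.15 to 0.27 with 1 array left out. Gjb2 passed at −0.16 after quantile normalization, and Gja4 at 0.20 without both arrays. Values near 0 changed sign: Gja4 was −0.0045 without Control replicate 3 (up to 0.13 with another array left out), Gja3 was 0.06 without both arrays and ranged from −0.10 to 0.0093, with 0.0054 without DEHP replicate 6 and 0.0093 without Control replicate 5, and Gjb6 ranged from −0.06 to 0.0021, the highest being without Control replicate 5. The cause was not tested.

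Over all probe sets 5016 passed, against 7614 with array weights, 1182 with a minimum fold of 1.2 and 3238 at an adjusted p under 0.01. Higher tight junction genes numbered 0, but 1 after quantile normalization, median centring, cyclic loess, the replicate block or one-symbol probe sets, 2 with array weights or without both arrays, and 0 to 2 with 1 array left out. Lower ones numbered 4, but 7 with array weights, 7 with the block and 1 with the minimum fold. With that minimum, connexin 43 partners numbered 0 higher and 4 lower, and transcription factors 0 and 0. Factors numbered 2 higher and 3 lower after cyclic loess, 1 higher at an adjusted p under 0.01, and 2 to 5 higher with 1 array left out (2 without DEHP replicate 1). Without Control replicate 5, Gjd3 was 0.0044, Gjd4 0.02, Gjb5 0.04 and Panx2 0.02, and their lowest values with another array left out were −0.18, −0.11, −0.10 and −0.17. Without both arrays they were 0.04, 0.03, 0.06 and 0.06. After cyclic loess Gjd4 was 0.0097, Gjb5 0.01 and Panx2 0.02, and Gjb5 was 0.02 after quantile normalization. Gjd2 was −0.03 without DEHP replicate 5 or Control replicate 3, and at most 0.10.

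The replicate numbers were not taken as pairs, since the labels name groups and replicates and nothing else. Same-numbered arrays correlated at 0.0717 to 0.772 in their deviations from the group means, 1 of 6 pairs being under 0.1. DEHP replicates 1 and 5 were closest to the control of the same number, and the other DEHP replicates to a different one. The highest value, 0.772, was that of replicate 5. These values do not settle whether the cultures were paired. With the replicate number as a block, Gja1 (1.30) and Gja5 (−0.61) passed, with limma adjusted p of 1.85e-05 and 0.000317, 2 of the 7 genes passed as before, and 6541 probe sets passed in all. Of the other named genes, the block brought Cldn5, Cldn2, Irx5 and Hbb past the threshold (adjusted p = 0.0282, 0.00867, 0.036 and 0.0263) and took S100b out (0.0547). No filter on dim probe sets could be run, since the ratios hold no level.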

Other observations

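Counts for the marker lists not described above stand beside 10.5% of all probe sets higher and 7.82% lower. Of 10 fibroblast markers 5 were lower and 4 higher under DEHP, the 2 with the smallest p being Pdgfra (0.90 ± 0.07), a growth factor receptor, and Postn (0.47 ± 0.04), periostin, both higher. The largest change of that list was in a lower marker, Thy1 (−1.25 ± 0.14), named after its value was seen. Of 10 epicardial, mesothelial and epithelial markers 5 were higher and 0 lower, led by Wt1 (0.29 ± 0.05) and Gpm6a (0.48 ± 0.10), with 0 lower also at an unadjusted p under 0.05 in limma. Of 5 Schwann cell markers 2 were lower, Pmp22 (−0.30 ± 0.06) and S100b (−0.16 ± 0.05), with 0 higher in limma, also unadjusted. S100b did not pass without both arrays that stood apart (−0.14, limma adjusted p = 0.085) or without any 1 of 9 single arrays, at limma adjusted p of 0.0506 to 0.0738, and after cyclic loess it was −0.07 (limma adjusted p = 0.526). Of 8 leukocyte markers 2 were higher and 2 lower (2 and 5 without both arrays that stood apart), Itgam standing at 0.53 ± 0.09 and Csf1r at −0.41 ± 0.06. None of 3 erythroid markers passed limma, 1 being lower at an unadjusted p under 0.05 (Hbb, −0.25 ± 0.11, and Alas2 at −0.08 ± 0.05), though Hbb passed without DEHP replicate 5 (−0.33, limma adjusted p = 0.0321). The smooth muscle markers with the smallest p were Cnn1 (−3.49 ± 0.13) and Kcnmb1 (−1.59 ± 0.08).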
